A study of Mus musculus with 6 samples.

Results

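The 10 genes described here encode the Sec61 protein-conducting channel of the endoplasmic reticulum (ER) membrane, the translocon-associated protein (TRAP) complex that sits beside it, and the channel partners Sec62 and Sec63. They were taken as a fixed set of named genes: Ssr1, Ssr2, Ssr3 and Ssr4 for TRAP, Sec61a1, Sec61a2, Sec61b and Sec61g for the channel, and Sec62 and Sec63. Each microarray probe whose transcript accession mapped to one of these genes was kept, which gave 16 probes for 10 of the 16490 genes tested. The samples were mouse Neuro2a (N2a) neuroblastoma cells, an established line, transiently transfected with plasmids that express artificial microRNAs against NFYA and NFYC (YAYC, 3 arrays) or with a control plasmid (Vector, 3 arrays), and harvested after 2 days of knockdown. NFYA and NFYC are subunits of the transcription factor NF-Y. The labels name the controls only as Vector, and the methods of the study list an empty vector as well as a non-targeting one. All arrays came from 1 cell line, and RNA was taken from the whole transfected culture, so that the values average over cells with different amounts of plasmid.

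Secretory and membrane proteins enter the ER through the Sec61 channel while they are being made, after the signal recognition particle (SRP) has brought the ribosome to its receptor on the ER membrane. TRAP binds the ribosome and the channel from the side and helps some signal peptides open it, and Sec62 and Sec63 assist precursors that engage the channel poorly. NF-Y binds the CCAAT motif, which is found in the promoters of many ER chaperone genes.

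Between 61.9% and 66.2% of the spots on each array were well above background, no spot was saturated, and arrays correlated at 0.989 to 0.994 within groups and at 0.987 to 0.99 between groups. The targeted genes were lower in the YAYC arrays, Nfya with a change of -0.76 (SE 0.055, limma adjusted p = 0.00128) and Nfyc with one of -1.81 (SE 0.045, limma adjusted p = 0.000323) on the log2 scale. Markers of the neuronal and sympathetic lineage were above background on every array for 15 of 15 genes. Their summed signal, in units of each array's 75th percentile, was 379 to 389 in Vector and 353 to 363 in YAYC. Such a sum is weighted toward the brightest genes, and the single genes were mixed. Their median change was 0.040 on the log2 scale, with 7 of 15 negative. At a limma adjusted p below 0.05, 5 were lower and 3 higher, where 15.8% and 15.7% of all tested genes were. The summed signal of the other markers was 0.222 to 0.26 in Vector and 0.253 to 0.289 in YAYC for 5 fibroblast genes, 2.24 to 3.22 and 2.1 to 2.58 for 3 leukocyte genes, 13.7 to 15.2 and 12 to 13.2 for 3 endothelial genes, and 0.761 to 0.779 and 0.447 to 0.458 for 4 glial genes. Lum of fibroblasts and Cdh5 of endothelium were not well above background on any array. The part of these marker shifts in the results was not tested. Vector arrays 1 to 3 and YAYC array 1 lay in row 1 of the single slide, and YAYC arrays 2 and 3 lay in row 2.

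Both genes of the set that were called belonged to TRAP. Ssr1 and Ssr3 fell, to about 33.7% and 62.7% of their Vector levels. Ssr2, Ssr4 and the channel subunit Sec61g were lower by 1.23-fold to 1.32-fold, which passed limma's test but not the minimum fold of 1.5. Sec61a1, Sec61a2, Sec61b, Sec62 and Sec63, each read from its brightest probe, did not pass the test. Sec61a1 and Sec62 passed it, under the minimum fold, with some of the other processing choices given below. A gene was called when its adjusted p was below 0.05 and its fold above 1.5. By this rule 2 of 10 genes were called lower and 0 higher, where 5.00% of all tested genes (824) were called lower and 3.91% (644) higher. With each array scaled to its median instead, 2 of 10 were called lower, and 1175 of all genes were called lower and 382 higher. At an adjusted p below 0.05 with any fold, 5 of 10 were lower, where the share over all tested genes was 15.8%. In 6 of 10 all YAYC arrays lay below all Vector arrays, a pattern that 27.1% of all tested genes showed. The median change of the 10 genes was -0.22 on the log2 scale, against 0.0053 over all tested genes. Since the arrays measured RNA of mixed cells relative to each array's own 75th percentile, fewer cells that express a gene and less of its RNA per cell cannot be told apart. Nothing in the labels says that the arrays came from separate cultures, so the p-values measure only the spread between these samples, which may be technical.

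**Figure D1:**
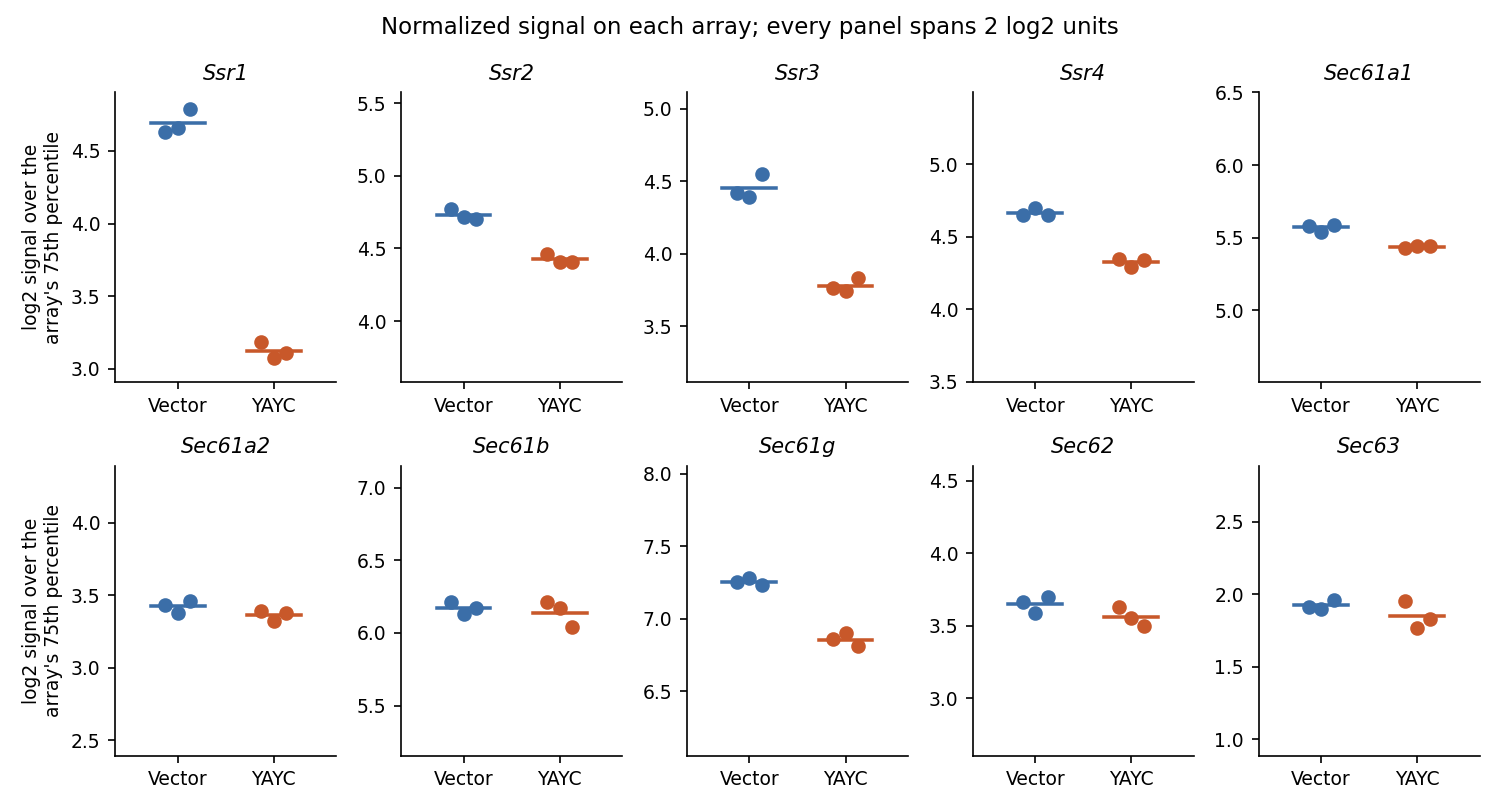
Normalized log2 signal of each of the 10 genes on the 6 arrays (y axis, log2 signal minus the 75th percentile of the array), with 1 panel a gene. Points are arrays, horizontal bars are group means, and each panel spans the same log2 range around its own centre. The YAYC points of Ssr1 lie between 3.07 and 3.18, below the Vector points at 4.63 to 4.79, while those of Sec61a2, Sec61b, Sec62 and Sec63 overlap with the Vector points.

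Ssr1 encodes the TRAP alpha subunit, a membrane glycoprotein with a large domain in the ER lumen. Its brightest probe read 4.63, 4.66 and 4.79 on Vector arrays 1 to 3 and 3.18, 3.07 and 3.11 on YAYC arrays 1 to 3 (log2 signal over the array's 75th percentile). All YAYC values lay well under the lowest Vector value, and the gap was many times the spread within either group (SD 0.083 in Vector and 0.054 in YAYC, n = 3 each). The change was -1.57 (SE 0.062, 95% confidence interval -1.73 to -1.41), a 2.97-fold lower level with a limma adjusted p of 0.000384. Ranked from the most negative change, Ssr1 stood at place 78 of the 16490 genes tested. A second, dimmer probe of the same transcript read -0.88, -0.86 and -0.81 in Vector and -2.46, -2.48 and -2.44 in YAYC. Its change of -1.61 (SE 0.042, limma adjusted p = 0.000323) was within the confidence interval of the first. The dimmest Ssr1 probe, at -3.08, -2.80 and -2.79 in Vector and -3.85, -3.68 and -3.46 in YAYC, changed by -0.77 (SE 0.13, limma adjusted p = 0.0154). All Ssr1 probes were thus called lower without overlap, but the size of the change was not the same for the dimmest. The 250 bases before the start of Ssr1 are shown because the gene with the largest change of the set holds no CCAAT on either strand there. They are at chr13:37994209-37994458 on the minus strand of GRCm38.p6, from RefSeq, and are written 5′ to 3′ along the gene, with any CCAAT, or its complement ATTGG, in capitals.
Ssr1: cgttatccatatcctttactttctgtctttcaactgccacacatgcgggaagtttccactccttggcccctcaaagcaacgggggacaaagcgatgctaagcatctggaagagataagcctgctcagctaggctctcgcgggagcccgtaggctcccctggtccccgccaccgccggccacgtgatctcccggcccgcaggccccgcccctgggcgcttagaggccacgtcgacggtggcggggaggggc

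Ssr3 encodes the TRAP gamma subunit, which spans the membrane several times and reaches the ribosome from the cytosolic side. Its brightest probe read 4.42, 4.39 and 4.55 in Vector and 3.76, 3.74 and 3.83 in YAYC. The groups did not overlap, and the arrays of each group lay close together (SD 0.084 and 0.048). Ssr3 fell by 0.67 on the log2 scale (SE 0.061, limma adjusted p = 0.00221), a 1.60-fold lower level. A second probe at 1.05, 1.01 and 1.01 in Vector and 0.46, 0.41 and 0.41 in YAYC gave a change of -0.60 (SE 0.040, limma adjusted p = 0.00110) and was called as well. Both Ssr3 probes therefore stood just beyond the minimum fold, the second at 1.51-fold. The Ssr3 promoter window held CCAAT on the gene's own strand, at positions -151 and -111 from the start. The stretch with both copies, at chr3:65392614-65392713 on the minus strand of GRCm38.p6, is shown as the example of a called gene with the motif, in capitals.
Ssr3: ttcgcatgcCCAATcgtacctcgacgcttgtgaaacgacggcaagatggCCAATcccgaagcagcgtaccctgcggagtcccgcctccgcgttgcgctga

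Ssr2 and Ssr4 encode the beta and delta subunits, single-span membrane proteins with a domain in the lumen. Ssr2 read 4.77, 4.72 and 4.70 in Vector and 4.46, 4.41 and 4.41 in YAYC. Ssr4 read 4.65, 4.70 and 4.65 in Vector and 4.35, 4.29 and 4.34 in YAYC. Neither gene's groups overlapped, and in both the arrays of a group lay close together. The change was -0.30 for Ssr2 (SE 0.044, limma adjusted p = 0.00861) and -0.34 for Ssr4 (SE 0.044, limma adjusted p = 0.00627). Both were below the minimum fold, at 1.23-fold and 1.26-fold lower, and 16.7% and 15% of all tested genes had a more negative change. Each was read by a single probe. With slide row as a block, the comparison rests on row 1, where 1 YAYC array lay beside 3 Vector arrays. The block gave -1.51 for Ssr1 (limma adjusted p = 0.0116), -0.69 for Ssr3 (limma adjusted p = 0.0314), -0.27 for Ssr2 (limma adjusted p = 0.0863) and -0.31 for Ssr4 (limma adjusted p = 0.0691). With row 1 alone, an analysis added after seeing the data, the changes were the same and none of these genes was called (limma adjusted p = 0.0515 for Ssr1 and 0.0794 for Ssr3). With spike-in scaling the limma adjusted p was 0.184 for both Ssr2 and Ssr4.

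Of the channel subunits, Sec61g, the small gamma subunit that clamps the channel from outside, had the largest change. Its probe read 7.25, 7.28 and 7.23 in Vector and 6.86, 6.90 and 6.81 in YAYC, without overlap. The change was -0.40 (SE 0.045, limma adjusted p = 0.00433), or 1.32-fold lower, and was -0.40 with a limma adjusted p of 0.0511 under the slide row block. With spike-in scaling it was -0.39, with a limma adjusted p of 0.131. The reference table lists Sec61g as a synonym of 2 further gene records, and the probe may read transcripts of such copies too. The Sec61g promoter window held CCAAT on the gene's strand at position -244 from the start and on the opposite strand at -149. That stretch, at chr11:16508585-16508734 on the minus strand of GRCm38.p6, is shown to set it beside Ssr3, with both copies in capitals.
Sec61g: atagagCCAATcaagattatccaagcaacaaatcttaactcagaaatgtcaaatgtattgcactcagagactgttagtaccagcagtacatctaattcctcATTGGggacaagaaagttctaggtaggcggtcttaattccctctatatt

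Sec61a1 encodes the alpha subunit that forms the pore. It read 5.58, 5.54 and 5.59 in Vector and 5.43, 5.44 and 5.44 in YAYC. The groups did not overlap, but the difference of -0.14 (SE 0.039, 95% confidence interval -0.24 to -0.038) had a limma adjusted p of 0.0633 and did not pass. Sec61a2, a second form of the pore subunit, read 3.43, 3.38 and 3.46 in Vector and 3.39, 3.32 and 3.38 in YAYC, a difference of -0.061 (SE 0.046, limma adjusted p = 0.402) with overlapping groups. Sec61b, the beta subunit, read 6.21, 6.13 and 6.17 in Vector and 6.21, 6.17 and 6.04 in YAYC. Its groups overlapped almost fully, with a difference of -0.031 (SE 0.061, 95% confidence interval -0.19 to 0.12, limma adjusted p = 0.760). A second Sec61b probe gave -0.11 (SE 0.039, limma adjusted p = 0.109), with no overlap between groups.

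Sec62 and Sec63 are the membrane partners of the channel, and Sec63 carries a lumenal J domain that recruits the chaperone BiP. Sec62 read 3.66, 3.59 and 3.70 in Vector and 3.63, 3.55 and 3.50 in YAYC, a difference of -0.091 (SE 0.056, limma adjusted p = 0.311). Sec63, the mean of 10 spots of 1 probe, read 1.91, 1.90 and 1.96 in Vector and 1.95, 1.77 and 1.83 in YAYC, a difference of -0.073 (SE 0.061, limma adjusted p = 0.450). The groups overlapped for both genes. The probes of Sec62 did not give the same result, since a dimmer one was lower by 0.32 in YAYC (SE 0.073, limma adjusted p = 0.0348) without overlap. A dimmer Sec63 probe differed by -0.18 (SE 0.047, limma adjusted p = 0.0533).

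**Figure D2:**
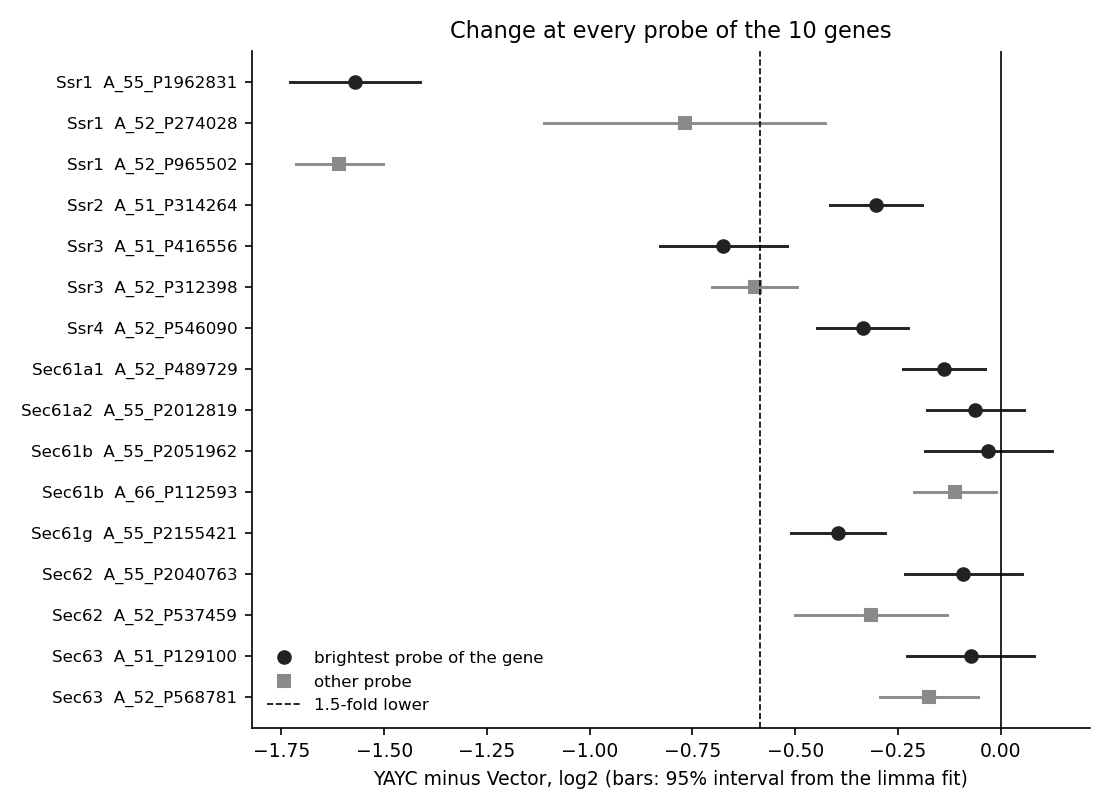
Change of every probe of the 10 genes, YAYC minus Vector (x axis, log2), with 95% confidence intervals and a dashed line at 1.5-fold lower. The Ssr1 probes lie at -1.61, -1.57 and -0.77 and the Ssr3 probes at -0.67 and -0.60, and every other probe lies between -0.40 and -0.031.

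To ask whether the subunits of one complex changed by different amounts, the difference between the log2 signals of 2 subunits was taken on each array and compared between groups, which removes anything that shifts an entire array. There were 13 such pairs, and an exact two-sided permutation test over the 20 assignments of 6 arrays to groups cannot give a p below 0.1. Within TRAP, the difference between groups was -1.27 for Ssr1 minus Ssr2 (SE 0.068), -1.24 for Ssr1 minus Ssr4 (SE 0.060) and -0.90 for Ssr1 minus Ssr3 (SE 0.046). It was -0.34 for Ssr3 minus Ssr4 (SE 0.067) and 0.37 for Ssr2 minus Ssr3 (SE 0.073). These 5 pairs did not overlap between groups, and each had the smallest exact permutation p of 0.1 (0.144 adjusted over the 13 pairs). Ssr2 minus Ssr4 was the TRAP pair whose groups overlapped (0.032, SE 0.035, exact permutation p = 0.5, adjusted p = 0.591). In the order of change on the brightest probes, Ssr1 came first and Ssr3 second, and Ssr4 and Ssr2 did not differ beyond their spread. Probes of the same gene differed as well, from -1.61 to -0.77 for Ssr1 and from -0.32 to -0.091 for Sec62. With the mean of a gene's probes, Ssr1 minus Ssr3 was -0.68. How far the response of single probes enters the pair differences was not tested.

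Within the channel, the largest pair differences were those with Sec61g. They were 0.26 for Sec61a1 minus Sec61g (SE 0.039), 0.33 for Sec61a2 minus Sec61g (SE 0.059) and 0.37 for Sec61b minus Sec61g (SE 0.050), each without overlap and with an exact permutation p of 0.1. Sec61a1 minus Sec61a2 was -0.076 (SE 0.026, exact permutation p = 0.1), again without overlap. Sec61a1 against Sec61b (-0.11, SE 0.053, exact permutation p = 0.2) and Sec61a2 against Sec61b (-0.031, SE 0.061, exact permutation p = 0.7) overlapped, as did Sec62 against Sec63 (-0.018, SE 0.036, exact permutation p = 0.8). In all, 9 of 13 pairs had no overlap, and none could pass a threshold of 0.05 with this exact test. The pairs share genes, so they are not separate results. Each pair without overlap, except Sec61a1 minus Sec61a2, held Ssr1, Ssr3 or Sec61g. For single genes the share without overlap was 27.1% lower and 27.7% higher over all tested genes, and no such share was taken over pairs of genes.

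**Figure D3:**
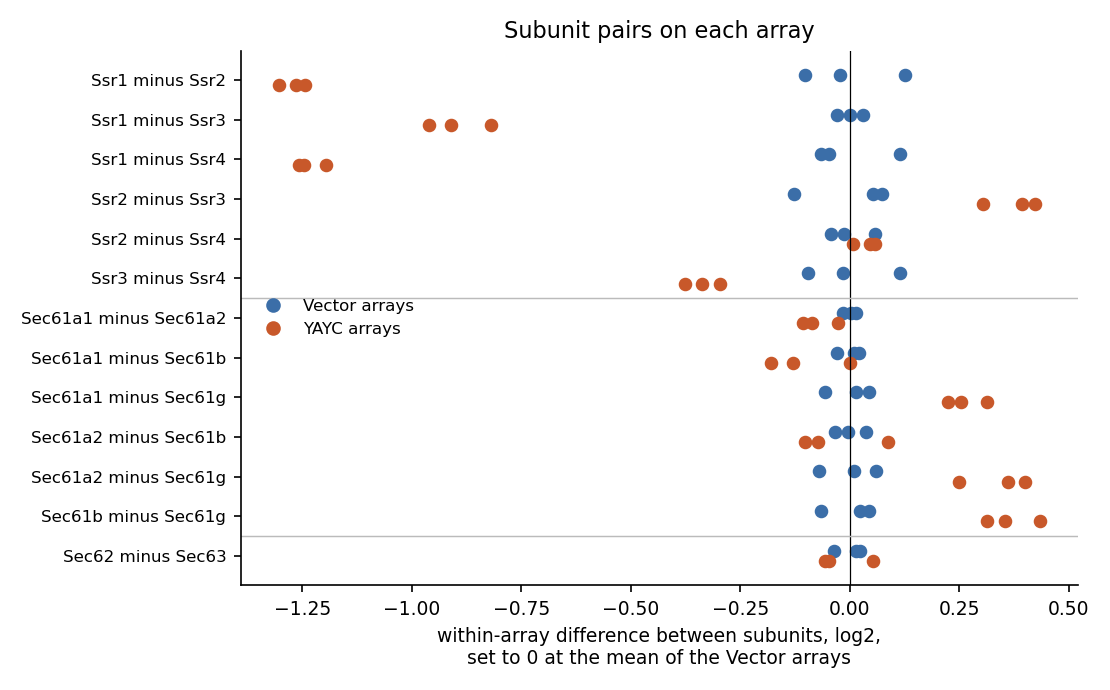
Difference between 2 subunits on each array, relative to the Vector mean of the pair (x axis, log2), for the 13 pairs within TRAP, within the channel and for Sec62 with Sec63. Points are the 3 Vector and 3 YAYC arrays. The pairs with Ssr1 lie farthest from 0, at mean differences of -1.27, -1.24 and -0.90, and the Ssr2 and Ssr4 pair stays near 0.

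The promoter windows of these genes, 250 bases before to 50 bases after the start in RefSeq GRCm38.p6, were searched for CCAAT on both strands (CCAAT or ATTGG). Of the 10 genes, 8 had a window. Ssr3 and Sec61g held 2 copies each, Sec63 held 1 at position -230, and Ssr1, Ssr4, Sec61a2, Sec61b and Sec62 held 0. The share of 3 of 8 windows (37.5%) was close to the 37.4% of all 32851 windows and the 37.8% of 16364 windows of tested genes. Windows of genes called lower held the motif in 47.8% of 850, and those of genes called higher in 33.4% of 604. A longer form of the motif, CCAAT with A or G before it and C or G after it on either strand, was found in 2 of 8 windows of the set and in 17.0% of all windows, and the 250 bases before the start alone held CCAAT in 3 of 8 and 33.8%. Ssr1 fell with 0 copies in its window, and Sec63, with 1 copy, did not pass limma's test. Ssr2 and Sec61a1 had no window. Whether the motif bears on the changes was not tested. A match is a run of letters and not a bound site, and CCAAT farther from the start was not counted.

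The same comparison was made for 8 lists of other genes of protein entry into the ER, all 72 of which were tested. They comprised SRP and its receptor, signal peptidase, oligosaccharyltransferase, the ER membrane complex, multipass translocon and accessory proteins, tail-anchor and SND routes, lumenal chaperones of translocation, and markers of the unfolded protein response. In all, 3 of 72 were called lower and 0 higher, against 5.00% and 3.91% of all tested genes, and at any fold 14 of 72 were lower and 4 higher at a limma adjusted p below 0.05, against 15.8% and 15.7%. List medians ran from -0.18 for the unfolded protein response markers to 0.049 for the tail-anchor and SND routes.

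In the targeting step before the channel, 2 of 10 SRP and receptor genes were called lower, where 5.00% of all tested genes were. Both are copies of the GTPase subunit that binds signal peptides. Srp54c read 4.38, 4.33 and 4.47 in Vector and 3.74, 3.67 and 3.71 in YAYC, and fell by 0.68 (SE 0.056, limma adjusted p = 0.00171). Srp54b was dim, at -4.19, -4.04 and -4.18 in Vector and -5.66, -5.83 and -5.91 in YAYC, and was well above background on 3 Vector arrays but only 1 YAYC array. Its change was -1.66 (SE 0.085, limma adjusted p = 0.000580). The neighbouring copy Srp54a differed by -0.52 (SE 0.055, limma adjusted p = 0.00343) on its brightest probe and by -1.38 (SE 0.049, limma adjusted p = 0.000331) on its other one. These genes are nearly identical in sequence, so that probes may read more than 1 of them, and the copies are uncertain one by one. With another background correction (normexp) the changes were -0.50 for Srp54b and -0.55 for Srp54c, under the minimum fold. The median of this list was -0.050, with 5 of 10 genes below 0.

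Enzymes that act on the entering chain showed no called gene. In signal peptidase, which cleaves signal peptides, 0 of 5 passed at any fold. On the brightest probes the largest differences were -0.14 for Sec11a (SE 0.048, limma adjusted p = 0.0969) and -0.13 for Spcs2 (SE 0.049, limma adjusted p = 0.137). The other probes gave -0.083 for Sec11a (SE 0.046, limma adjusted p = 0.263) and -0.31 for Spcs2 (SE 0.17, limma adjusted p = 0.256). In oligosaccharyltransferase, which attaches N-glycans, 2 of 12 were lower at an adjusted p below 0.05, close to the 15.8% of all tested genes. They were Magt1 at -0.46 (SE 0.042, limma adjusted p = 0.00218) and Rpn2 at -0.31 (SE 0.050, limma adjusted p = 0.0126). The medians of these lists were -0.078 and -0.12.

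Other insertion machines were mixed. In the ER membrane complex, an insertase for membrane proteins, Emc6 was higher by 0.51 (SE 0.042, limma adjusted p = 0.00175) on its brightest probe. Its other probe gave 0.25 (SE 0.048, limma adjusted p = 0.0205). Emc9 was lower by 0.48 (SE 0.056, limma adjusted p = 0.00449). At any fold 3 of 10 genes were lower and 2 higher, where the shares over all tested genes were 15.8% and 15.7%. Among 11 multipass translocon and accessory genes, Tmem147 was the single gene past the adjusted p, at -0.24 (SE 0.041, limma adjusted p = 0.0144). Tram1l1 had the largest difference there (0.31), but with an SE of 0.69 and a signal well above background on 1 array of each group it has no readable direction. In the tail-anchor and SND routes, which bypass SRP, Get1 at 0.19 (SE 0.064, limma adjusted p = 0.103) and Get3 at 0.17 (SE 0.058, limma adjusted p = 0.102) had the largest differences, and 0 of 8 passed.

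Among 8 lumenal chaperones of translocation, 2 were lower and 2 higher at any fold, and none was called. The shares over all tested genes at any fold were 15.8% lower and 15.7% higher. Hspa5, which encodes BiP, the chaperone that pulls chains through the channel with Sec63, read 6.13, 6.04 and 6.15 in Vector and 6.14, 6.14 and 6.12 in YAYC. Its difference was 0.026 (SE 0.047, limma adjusted p = 0.737), with overlapping groups. The J-domain cochaperones Dnajc1 and Dnajb9 were higher by 0.53 (SE 0.050, limma adjusted p = 0.00253) and 0.34 (SE 0.050, limma adjusted p = 0.00960). Another Dnajb9 probe gave 0.13 (SE 0.13, limma adjusted p = 0.535). The lower ones, also named after their values were seen, were Sil1 at -0.33 (SE 0.042, limma adjusted p = 0.00597) and Dnajc10 at -0.29 (SE 0.067, limma adjusted p = 0.0367). Another Dnajc10 probe gave -0.084 (SE 0.055, limma adjusted p = 0.342). Among the unfolded protein response markers, Sdf2l1, a lumenal BiP partner, was the called gene. It read 2.30, 2.34 and 2.31 in Vector and 1.15, 0.97 and 1.09 in YAYC, and fell by 1.24 (SE 0.061, limma adjusted p = 0.000528). Ddit3, which encodes the stress-induced transcription factor CHOP, differed by -0.20 (SE 0.054, limma adjusted p = 0.0527). At any fold 3 of 8 genes of this list were lower, the others being Sel1l, of ER-associated degradation, at -0.48 (SE 0.072, limma adjusted p = 0.00955) and Xbp1, a transcription factor of the response, at -0.33 (SE 0.055, limma adjusted p = 0.0125), which are named outside the rule for named genes after their values were seen.

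**Figure D4:**
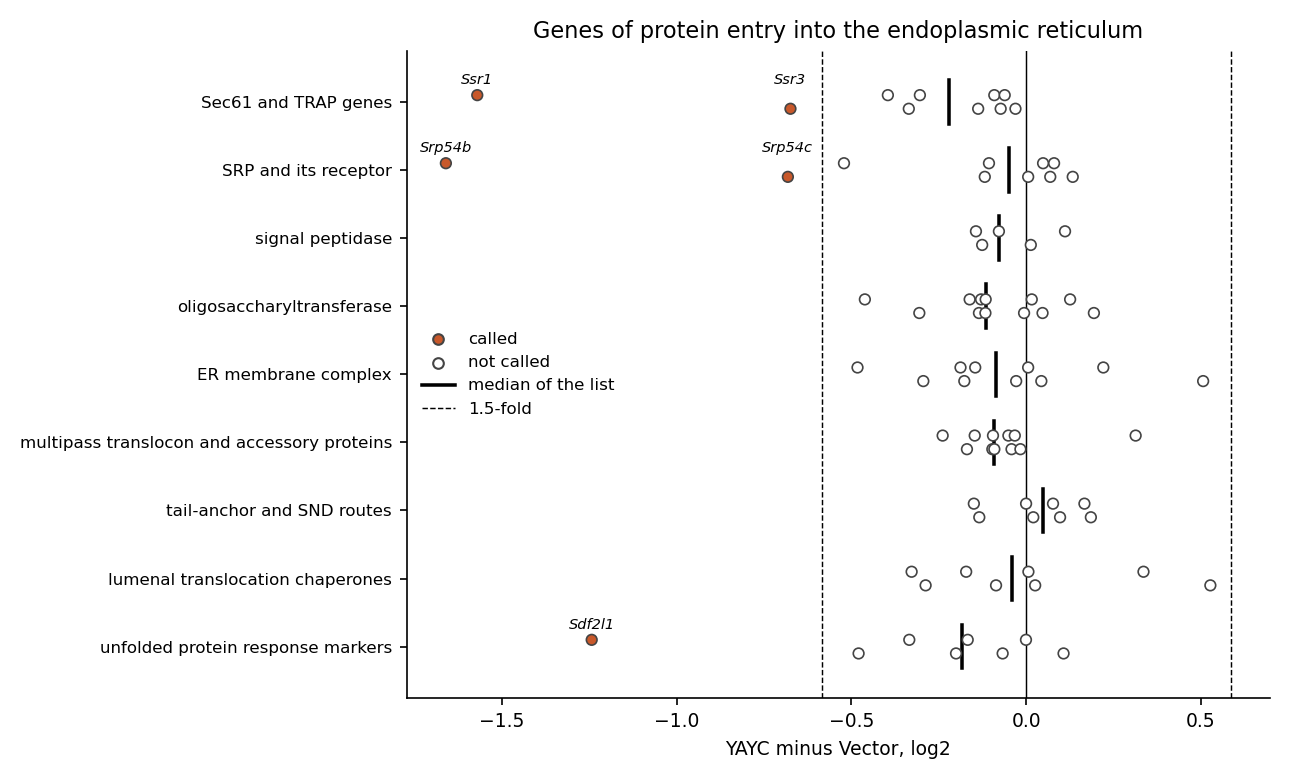
Change of each gene, YAYC minus Vector (x axis, log2), for the Sec61 and TRAP genes and the 8 lists of related genes (y axis). Filled points are called genes, vertical bars are list medians and dashed lines mark 1.5-fold. The called genes are Ssr1, Ssr3, Srp54b, Srp54c and Sdf2l1, all on the lower side.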

How the data were processed

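RNA was labelled by the submitters with a one-color kit and read on mouse expression arrays. The deposited intensity values are the processed signals of Agilent Feature Extraction 10.10.1.1, background-subtracted by the authors' scanner software and not normalized between arrays. They were taken to log2, and the log2 of each array's 75th percentile was subtracted. A probe was kept when it reached the array's 20th percentile on all 3 arrays of a group, which left 42126 probes. Of these, 21578 had a gene symbol and covered 16490 genes, each gene read from its brightest probe. Symbols came from RefSeq GRCm38.p6 by accession. limma 3.58.1 (R 4.3.3, lmFit and eBayes, Benjamini-Hochberg over all probes) compared 3 YAYC with 3 Vector arrays, and the method was tested on simulated data. The deposited matrix of log2 values, processed by the authors, was an alternative, and its differences between arrays matched the scanner values within 0.00761. normexp used median spot and background intensity, offset 50.

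The text names all 10 genes with every probe, the targeted genes, each called list gene, otherwise the 2 largest changes of a list, and Hspa5 and Ddit3. Members and lists were chosen with earlier results of these data known. Other array scalings, filters, folds, probe rules, spike-in scaling, replicate and slide row blocks and leaving out arrays were tried. The number of arrays limits the precision.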

Additional observations from a re-analysis of the deposited data

How the results depend on the processing

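Ssr1 and Ssr3 were lower under each of the alternatives run (-1.69 to -1.32 and -0.79 to -0.63), and so were Ssr2, Ssr4 and Sec61g, though their adjusted p rose to 0.184, 0.184 and 0.131 with spike-in scaling, when 2 of the 10 genes stayed below 0.05. Sec61b turned to 0.014 with quantile normalization, 0.045 with normexp, 0.036 with slide row as a block or row 1 alone, and lay between -0.064 and 0.018 with a replicate left out, the last without YAYC replicate 3. Sec61a2 turned to 0.047 with normexp, and Sec63 to 0.025 with slide row as a block or row 1 alone. Sec61a2 against Sec61b turned to 0.0023 with normexp, 0.0092 with the mean of probes, and lay between -0.087 and 0.0062 with a replicate left out, the last without YAYC replicate 2. The cause of these turns was not tested. Sec61a1 passed limma's test under some alternatives. Its adjusted p was 0.03985 with probes kept when well above background in a group, 0.00679 with a variance trend and 0.0182 with the mean of probes. The mean of probes also gave Sec62 a change of -0.20 (limma adjusted p = 0.022). Of the 10 genes, called lower were 5 with no minimum fold, 1 at a minimum fold of 2 and 2 each time a replicate was left out. Of the list genes, 14 were lower and 4 higher with no minimum fold, 6 lower with median scaling and 1 lower with normexp. Of all genes, 2602 were lower and 2597 higher with no minimum fold, 286 and 181 at a minimum fold of 2, 1175 and 382 with median scaling and 557 and 286 with normexp, against 824 and 644. Median scaling moved the median change of all genes to -0.11.

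The correlations of same-numbered deviations from the group means were 0.0178, 0.0666 and 0.00246, and that of Vector 3 with YAYC 1 was 0.0627. With 3 arrays a group, these values cannot show whether the replicates were prepared in pairs. With a replicate block, 2 of the 10 genes, and 765 lower and 518 higher of all genes, were called. Row 1 alone, chosen after seeing the data, leaves 3 Vector arrays and 1 YAYC array, which is assumed to vary like the others. There limma called 0 genes, 0 list genes and 0 of the 10 (smallest adjusted p 0.0515), while 2289 genes were lower and 2609 higher at an unadjusted p below 0.05, 5 of the 10 among the lower.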
